A study of Mus musculus with 6 samples.

Results

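The unfolded protein response regulators examined here were 10 genes (Atf4, Atf3, Ddit3, Xbp1, Atf6, Ern1, Eif2ak3, Herpud1, Trib3 and Chac1) measured in mouse hearts. They were chosen by name, as every non-control probe on the arrays whose gene name was one of these. The rule found all 10 genes through 11 probes, of 23688 gene names and 55681 probes on each array. The arrays compared 3 sham mice with 3 mice kept in tail-suspension for 28 days, a model of weightlessness in which the hind limbs carry no load and body fluid shifts toward the head. All 6 animals were male C57BL/6 mice. No genetic change and no drug is recorded for either group. The labels give a start of suspension at 10 weeks of age and an age of 11 weeks. These do not match 28 days of suspension if 11 weeks is the age at tissue collection. The sham mice were kept in the same space under the same feeding conditions without suspension. Total RNA from cardiac muscle of each mouse was hybridised to 1 single-colour array, so each group had n = 3. In whole tissue, fewer cells of a type and less RNA per cell cannot be told apart.

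The unfolded protein response is the reaction of a cell to misfolded protein in the endoplasmic reticulum (ER), where secreted and membrane proteins are folded. Its membrane sensors are IRE1 (gene Ern1), PERK (gene Eif2ak3) and ATF6. IRE1 splices the mRNA of the transcription factor XBP1, PERK phosphorylates the translation factor eIF2α and thereby slows protein synthesis while favouring translation of ATF4 mRNA, and ATF6 is cut in the Golgi to release a transcription factor. Several regulators act mainly through splicing, cleavage or translation, steps that probes for total mRNA do not measure. ATF4 also answers amino acid shortage, viral RNA and heme deficiency through other eIF2α kinases, and is then spoken of as the integrated stress response. In heart muscle, these pathways have been studied in pressure overload, ischemia and atrophy.

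The promoters of Chac1, Herpud1, Atf3 and Trib3 are shown first, because they hold a known stress response motif. Promoter sequences were taken from RefSeq (assembly GRCm38.p6), with 9 of the 10 members matched and no entry for Atf6. The amino acid response motif, searched as TGATGNAA on both strands, is the core to which ATF4 with a C/EBP partner is known to bind. It occurred in the promoter windows of Chac1, Herpud1, Atf3 and Trib3, that is 4 of the 9 members, against 3.97% of all 32851 promoter windows of the same length (250 bases before to 50 after the gene start). The ER stress element II, searched on both strands as ATTGG and CCACG with 1 base of any kind between them and known to bind ATF6 and XBP1, occurred in Herpud1, against 0.0365% of all windows. Capitals mark these matches, which read TTGCATCA or TTACATCA because all 4 amino acid response matches lie on the strand opposite to the motif as written. The windows of Chac1 (chr2:119350992-119351241, + strand), Herpud1 (chr8:94386179-94386428, + strand) and Atf3 (chr1:191183334-191183583, - strand) are the 250 bases before the gene start. For Trib3 (chr2:152344028-152344057, - strand) only the 30 bases around the match are printed.
Chac1: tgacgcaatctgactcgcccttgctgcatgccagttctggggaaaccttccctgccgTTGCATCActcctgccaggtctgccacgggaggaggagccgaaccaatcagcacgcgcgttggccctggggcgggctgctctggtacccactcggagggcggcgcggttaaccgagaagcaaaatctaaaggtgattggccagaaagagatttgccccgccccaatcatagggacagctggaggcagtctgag
Herpud1: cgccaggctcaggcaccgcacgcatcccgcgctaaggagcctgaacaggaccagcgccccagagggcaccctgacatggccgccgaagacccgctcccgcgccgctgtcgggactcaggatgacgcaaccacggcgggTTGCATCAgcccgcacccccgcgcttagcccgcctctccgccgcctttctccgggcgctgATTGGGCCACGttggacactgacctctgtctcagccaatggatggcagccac
Atf3: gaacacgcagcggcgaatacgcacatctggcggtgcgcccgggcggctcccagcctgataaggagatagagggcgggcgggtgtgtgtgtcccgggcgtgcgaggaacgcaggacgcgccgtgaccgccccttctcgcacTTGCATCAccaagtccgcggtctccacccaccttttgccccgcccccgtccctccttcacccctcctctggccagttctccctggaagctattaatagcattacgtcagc
Trib3: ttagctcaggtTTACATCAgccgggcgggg

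In Chac1 the match began 193 bases before the gene start, in Herpud1 112 bases before it and in Atf3 110 bases before it. In Trib3 it lay 14 bases after the start. The ER stress element II of Herpud1 began 52 bases before the start, between the amino acid response match and the gene, and the matches did not overlap. The other motifs searched on both strands were the ER stress element, CCAAT and CCACG with 9 bases of any kind between them (0.119% of all windows), the unfolded protein response element TGACGTGG (0.676%) and the cyclic AMP response element TGACGTCA (1.79%), and these letters were in the window of 0 of the 9 members. A match describes the letters in the window and shows no binding.

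**Figure D1:**
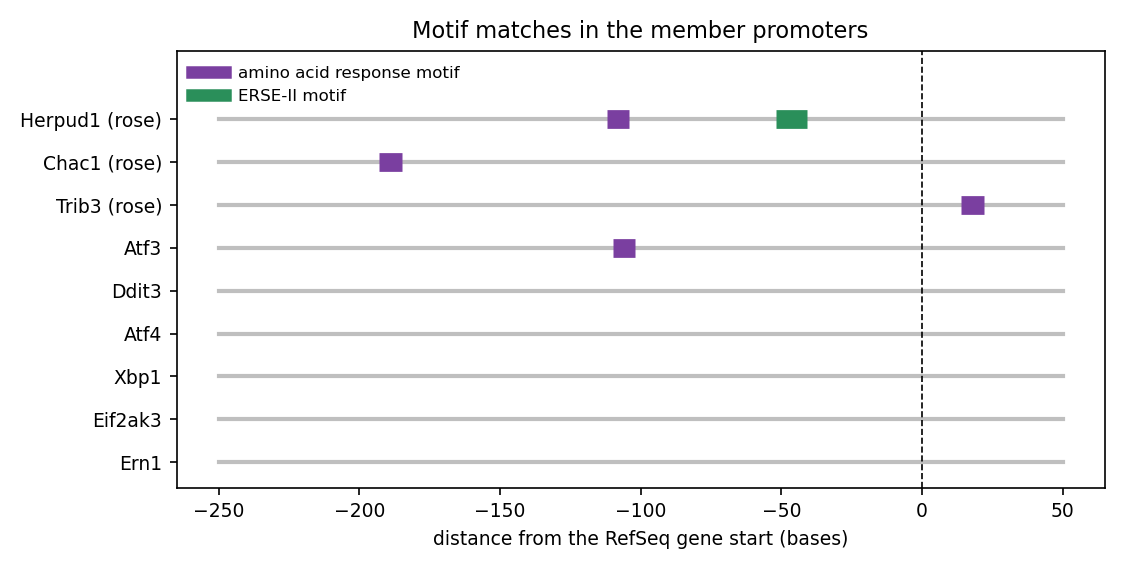
Position of each motif match in the promoter windows of the members, with the distance from the RefSeq gene start in bases on the horizontal axis (negative values lie before the start) and 1 line per gene. Amino acid response matches stand at 193, 112 and 110 bases before the start in Chac1, Herpud1 and Atf3 and 14 bases after it in Trib3, and the 1 ER stress element II match is in Herpud1.

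Levels are given on the log2 scale, as the log2 processed intensity minus the 75th percentile of that array, so that 0 is the intensity that 75% of spots do not exceed. That percentile was 302 to 376 intensity units on the 6 arrays, and 50.9% to 53.4% of probes were well above background by the scanner software's flag. All 11 member probes were well above background on all 6 arrays. Precision is limited by the small number of arrays, and p-values measure the spread between these mice only. All arrays were on 1 slide and in 1 scan. The 3 sham arrays and tail-suspension array 1 lay in the slide's row 1 and tail-suspension arrays 2 and 3 in row 2, so row and group overlap in large part. All 10 cardiomyocyte markers checked, among them Myh6 and Tnnt2, were well above background on all 6 arrays, as the tissue label says.

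Chac1, Herpud1 and Trib3 were higher in tail-suspension, and the other 7 members did not pass the test. Chac1, which degrades glutathione and is a known target of the ATF4 branch, was 3.49-fold higher. Herpud1, a membrane protein of the ER that takes part in the degradation of misfolded proteins, was 2.28-fold higher, and Trib3, a pseudokinase known to bind AKT and to restrain ATF4, was 1.47-fold higher. The test was limma on all 28032 tested probes, called at a Benjamini-Hochberg adjusted p under 0.05. The 3 called members of 10 stand beside 21.5% of the 14962 genes tested that were called in either direction, 10.5% that were called higher and 11% that were called lower. The median log2 fold change of the 10 members was 0.21, against -0.02 over all genes tested, and 9 of the 10 members had a positive value. At an unadjusted limma p under 0.05 the same 3 members passed, beside 39.9% of all genes tested, and the lowest unadjusted p among the other 7 was 0.0947, for Atf6.

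**Figure D2:**
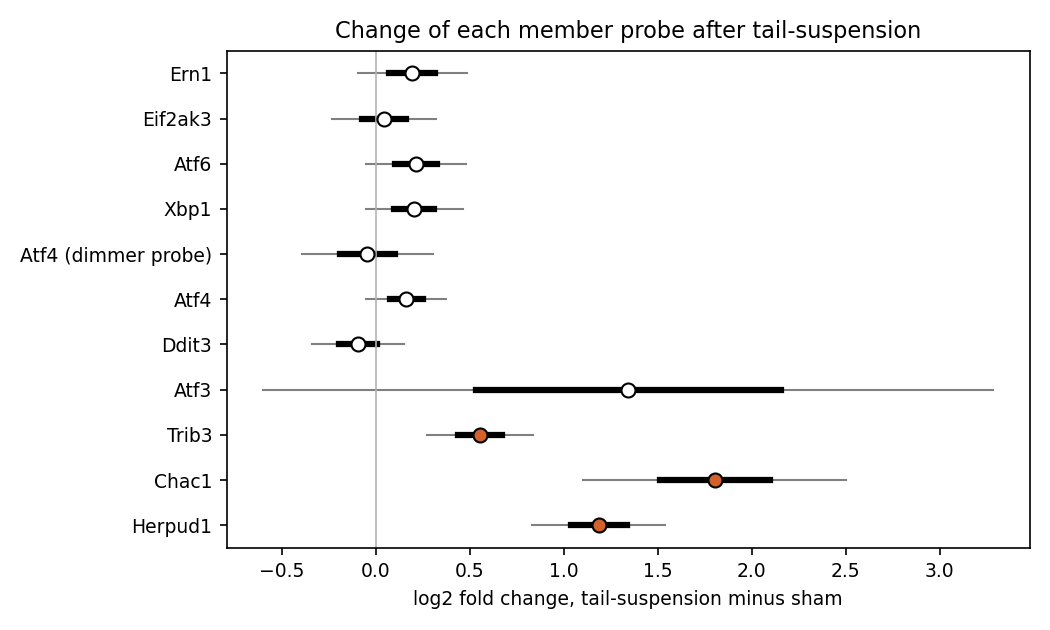
Log2 fold change (tail-suspension minus sham, n = 3 mice per group) of each member probe, with the standard error as a thick line and the 95% interval as a thin line. Filled points passed limma's adjusted threshold of 0.05, which are Chac1 at 1.80, Herpud1 at 1.19 and Trib3 at 0.56, and the interval of Atf3 is the widest, from -0.60 to 3.29.

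Chac1 was read by a probe at chr2:119179990-119180049 on the + strand (mm9, the build of the array files). Its log2 levels were -0.21, -0.71 and 0.44 in the 3 sham hearts and 1.34, 1.78 and 1.81 in the 3 tail-suspended hearts. Every tail-suspended heart lay above every sham heart, and the sham hearts were the more scattered group (-0.16 ± 0.57 against 1.64 ± 0.26, mean ± SD, n = 3). The log2 fold change was 1.80 (SE 0.29, 95% interval 1.1 to 2.50, limma adjusted p = 0.0115). In intensity units, the probe read 278, 196 and 408 in sham hearts and 861, 1294 and 1316 in tail-suspended hearts. The pooled SD of Chac1 within groups, 0.447 on the log2 scale, was above that of 94.9% of genes tested.

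Herpud1 was read by a probe at chr8:96919117-96919176 on the + strand (mm9). Its log2 levels were 4.80, 4.61 and 4.43 in sham hearts and 5.76, 5.60 and 6.04 in tail-suspended hearts. The groups did not overlap, and the lowest tail-suspended heart was tail-suspension 2. The means were 4.61 ± 0.18 and 5.80 ± 0.22 (SD, n = 3), with a log2 fold change of 1.19 (SE 0.15, 95% interval 0.83 to 1.54, limma adjusted p = 0.00567). The intensities ran from 6495 to 8963 in sham hearts and from 18314 to 24659 in tail-suspended hearts, and no spot on any array was saturated. The promoter of Herpud1, shown above, held both the amino acid response motif and the ER stress element II.

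Trib3 was read by a probe at chr2:152163161-152163220 on the - strand (mm9). The probe holds the polyadenylation signal AATAAA, shown in capitals with its surroundings (chr2:152163174-152163203).
Trib3 probe: catcatgtgcccAATAAAagagagctgtgt

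Trib3 log2 levels were 0.65, 0.61 and 0.84 in sham hearts and 1.11, 1.21 and 1.43 in tail-suspended hearts. The groups again did not overlap, with a smaller gap than for Chac1 and Herpud1. The means were 0.70 ± 0.12 and 1.25 ± 0.16 (SD, n = 3), and the log2 fold change was 0.56 (SE 0.12, 95% interval 0.27 to 0.84, limma adjusted p = 0.0240). Trib3 did not pass when sham 1, sham 2 or tail-suspension 3 was left out (limma adjusted p = 0.0774, 0.0907 and 0.0721), whereas Chac1 and Herpud1 passed without any 1 array. For each of the 3 called genes, the exact two-sided permutation test over the 6 mice gave p = 0.1, the smallest that 3 against 3 allows. Any gene whose groups do not overlap gets this value, which was 47.2% of all genes tested. It was also the value of Atf6 and of the brighter Atf4 probe, so it does not set the called genes apart.

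**Figure D3:**
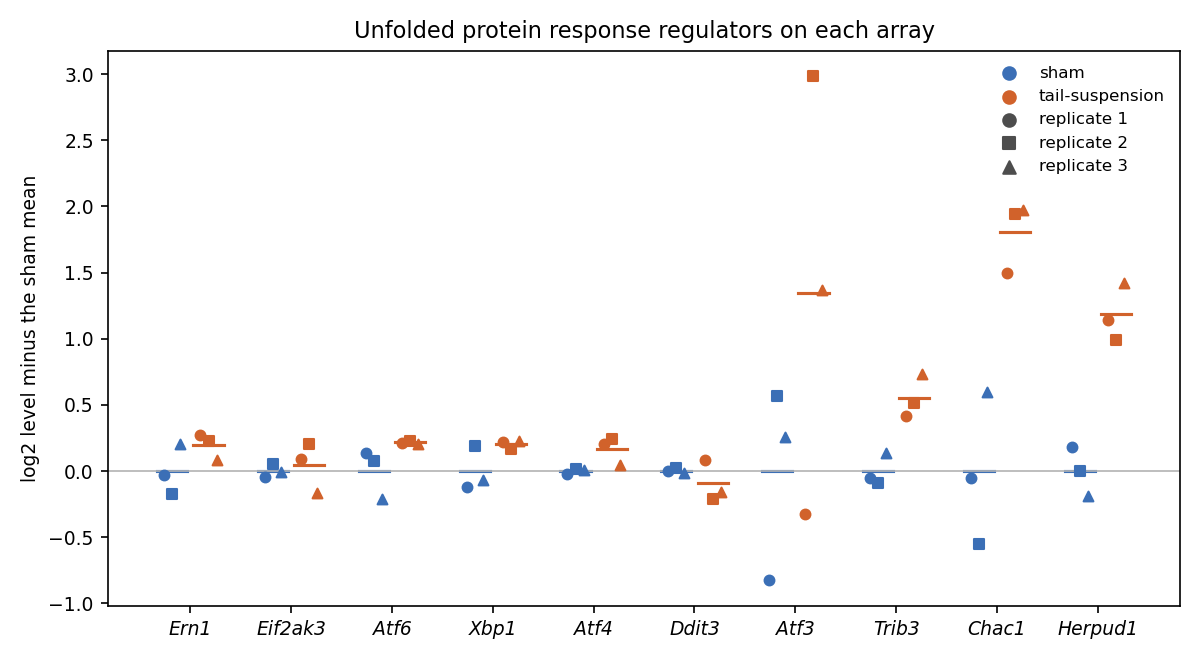
Log2 level of each member probe on each of the 6 arrays, minus that probe's mean over the sham arrays, with 1 marker shape per replicate number and a bar at each group's mean. The tail-suspended hearts lie above all sham hearts for Chac1, Herpud1, Trib3, Atf6 and the brighter Atf4 probe, and the arrays of Atf3 are spread more widely than those of any other member.

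With the slide row as a block, the estimates rest on tail-suspension 1 against the sham arrays of the same row. They were then 1.14 for Herpud1 (limma adjusted p = 0.0773), 1.5 for Chac1 (adjusted p = 0.133) and 0.42 for Trib3 (adjusted p = 0.224), so the signs stayed and none of these passed. Of all 28032 probes, 320 were called higher and 177 lower in that fit, against 3023 and 2683 without the block.

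Among the sensors, Ern1, Eif2ak3 and Atf6 did not pass the test. Ern1 (mm9 chr11:106258948-106259007, - strand), the kinase and RNase IRE1, had log2 levels of -1.51, -1.65 and -1.28 in sham hearts and -1.21, -1.25 and -1.39 in tail-suspended hearts. The groups overlapped through sham 3, and the log2 fold change was 0.19 (SE 0.12, 95% interval -0.10 to 0.48, limma adjusted p = 0.283). Eif2ak3 (mm9 chr6:70855152-70855211, + strand), the eIF2α kinase PERK, had -0.59, -0.49 and -0.55 in sham hearts and -0.45, -0.34 and -0.71 in tail-suspended hearts. Tail-suspension 3 was the lowest and tail-suspension 2 the highest of the 6, and the log2 fold change was 0.05 (SE 0.12, 95% interval -0.23 to 0.32, limma adjusted p = 0.801). Atf6 (mm9 chr1:172635311-172635370, - strand) had 1.86, 1.80 and 1.52 in sham hearts and 1.94, 1.95 and 1.93 in tail-suspended hearts. The tail-suspended hearts lay close together and just above the highest sham heart, with a log2 fold change of 0.22 (SE 0.11, 95% interval -0.05 to 0.48, limma adjusted p = 0.202). The upper ends of these intervals correspond to less than a doubling of any sensor mRNA.

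The transcription factors of the response did not pass either. Xbp1 (mm9 chr11:5425816-5425875, + strand), whose spliced form drives ER chaperone and degradation genes, had log2 levels of 4.84, 5.15 and 4.89 in sham hearts and 5.18, 5.12 and 5.19 in tail-suspended hearts. The groups overlapped because sham 2 stood above tail-suspension 2, and the log2 fold change was 0.21 (SE 0.11, 95% interval -0.05 to 0.46, limma adjusted p = 0.206). The single Xbp1 probe does not separate the spliced from the unspliced mRNA. Ddit3 (mm9 chr10:126732518-126732821, + strand, a 60-base probe over 304 genomic bases), which encodes the pro-apoptotic factor CHOP, had 1.14, 1.17 and 1.13 in sham hearts and 1.23, 0.94 and 0.99 in tail-suspended hearts. It was the member with a negative estimate, -0.09 on the log2 scale (SE 0.10, 95% interval -0.34 to 0.15, limma adjusted p = 0.542), and tail-suspension 1 was the highest array of all 6.

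Atf4, the transcription factor at the centre of the integrated stress response, had 2 probes. The brighter probe lies at mm9 chr15:80087902-80087961 on the + strand and ends in a stretch with the polyadenylation signal AATAAA, in capitals below (chr15:80087932-80087961). The dimmer probe lies upstream at chr15:80086639-80086698 and holds no such signal.
Atf4 brighter probe: tgctgtgtttgctgtAATAAAttattttgt

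The brighter probe read log2 levels of 5.57, 5.60 and 5.60 in sham hearts and 5.79, 5.83 and 5.63 in tail-suspended hearts. The groups did not overlap, tail-suspension 3 lay only slightly above the sham hearts, and the log2 fold change was 0.16 (SE 0.089, 95% interval -0.05 to 0.38, limma adjusted p = 0.224). The dimmer probe read 0.30, 0.35 and 0.07 in sham hearts and 0.20, 0.43 and -0.04 in tail-suspended hearts, which overlapped throughout (log2 fold change -0.04, SE 0.15, limma adjusted p = 0.846). The probes differed in sign, and neither passed.

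Atf3, a stress-inducible repressor and known target of ATF4 whose mRNA is also an immediate-early transcript, was the most variable member. Its probe (mm9 chr1:192994547-192994606, - strand) had log2 levels of 0.06, 1.45 and 1.14 in sham hearts and 0.56, 3.87 and 2.25 in tail-suspended hearts. Tail-suspension 1 lay below 2 of the 3 sham hearts and tail-suspension 2 stood far above all others, with intensities of 503 and 5500. The log2 fold change was 1.34 (SE 0.81, 95% interval -0.60 to 3.29, limma adjusted p = 0.269, exact permutation p = 0.3). The pooled SD within groups was 1.28 on the log2 scale, above that of 99.9% of genes, where the median gene had 0.142. With the slide row as a block the estimate was -0.32 (limma adjusted p = 0.835), and left-out arrays moved it between 0.52 and 2.18. The promoter of Atf3 held the same amino acid response letters, TTGCATCA, as those of Chac1 and Herpud1.

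Over all members, 5 of 10 had groups that did not overlap, all with the tail-suspended hearts higher. Over all genes tested, 47.2% did not overlap, 21.9% with tail-suspension higher and 25.3% with it lower.

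Genes that control the sensors and eIF2α were listed beside the members, and 20 of 21 were tested. Of these, 2 rose and 4 fell, with a median log2 fold change of -0.02 and 30% called. Among probes well above background on all 6 arrays, 18 genes were tested, of which 2 rose and 4 fell. Creb3l4, described below, was not among these 18, so the 2 that rose include a gene not called among the 20. The 6 calls among the 20 genes became 3 without sham 1 and 2 without sham 2 or without tail-suspension 3. Over all genes tested, the calls fell as well, from 3219 of 14962 to 1414 of 15061, 995 of 15027 and 1161 of 15045 without these arrays. Ppp1r15a (GADD34), the stress-induced subunit that directs a phosphatase to eIF2α and is a known ATF4 target, had log2 levels of 2.95, 2.74 and 2.97 in sham hearts and 3.88, 3.90 and 3.89 in tail-suspended hearts. The tail-suspended hearts were nearly identical and all above the sham hearts (log2 fold change 1.01, SE 0.095, limma adjusted p = 0.00277). Creb3l4, a membrane-bound transcription factor related to ATF6, did not rise well above background in the sham hearts, and did so on all 3 tail-suspension arrays, which gave at least 3.03-fold higher signal. It entered the test only through the tail-suspended hearts, so its place among the genes that rose follows in part from the filter. A bound of this kind sets the tail-suspended mean against, for each sham array, the higher of its lowest signal well above background and the probe's own signal. Normexp background correction was run with an offset of 50 intensity units, which shrinks the log2 fold change of a dim probe. With it the log2 fold change of Creb3l4 was 0.40 and did not pass (limma adjusted p = 0.0737). Eif2ak2 (PKR), the eIF2α kinase activated by double-stranded RNA, fell by 0.63 on the log2 scale (SE 0.12, limma adjusted p = 0.0165). The other genes that fell, named after their values were seen, were Nck1 (by 0.50), Traf2 (by 0.49), an adaptor that IRE1 binds, and Creb3l2 (by 0.31). Eif2ak4 (GCN2), the kinase that senses uncharged tRNA, had 0.17 (limma adjusted p = 0.237), and Mbtps1, the protease that makes the first cut in ATF6, had -0.11 (limma adjusted p = 0.340).

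ER chaperones and folding enzymes were tested for 21 of 21 genes, of which 1 rose, or 4.76%, with a median log2 fold change of 0.11. The gene that rose was Sil1, a nucleotide exchange factor of BiP, by 0.34 (SE 0.081, limma adjusted p = 0.0327). Hspa5 (BiP), the main ER chaperone and a common readout of ATF6 activity, had log2 levels from 6.48 to 6.71 in sham hearts and from 6.20 to 6.88 in tail-suspended hearts. The tail-suspended hearts spanned the whole sham range, and the log2 fold change was 0.01 (limma adjusted p = 0.973), with a negative sign after quantile normalization (-0.07). Hsp90b1 (GRP94) had 0.16 (limma adjusted p = 0.459), the XBP1 target Dnajb9 had 0.11 (adjusted p = 0.386), and Sdf2l1 had 0.41 (adjusted p = 0.222).

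Of the genes of ER-associated degradation, the pathway to which Herpud1 belongs, 19 of 20 were tested. Derl3, Edem2 and Os9 rose and 16 did not pass, so 15.8% were called, with a median log2 fold change of -0.02. Derl3, a channel component, was 1.24 higher on the log2 scale (SE 0.11, limma adjusted p = 0.0025), at intensities of only 17 to 20 in sham hearts and 48 to 52 in tail-suspended hearts. Edem2, which trims mannose from misfolded glycoproteins, was 0.78 higher (SE 0.11, limma adjusted p = 0.00761), and Os9, a lectin that receives them, was 0.71 higher (SE 0.098, limma adjusted p = 0.00731). With normexp background correction, whose offset of 50 shrinks estimates at such intensities, the log2 fold changes of the dim genes Derl3 and Edem2 were 0.20 and 0.27. Neither passed (limma adjusted p = 0.289 and 0.126). Edem1, a target of XBP1, had -0.02 (limma adjusted p = 0.899).

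Targets of ATF4 in amino acid supply, tRNA charging and stress signalling were tested for 32 of 35 genes. Of these, 10 rose and 2 fell, or 37.5% called beside 21.5% of all genes tested, and the median log2 fold change was 0.25. The 12 calls became 6 without sham 1 and 4 without sham 2 or without tail-suspension 3. Leaving out these arrays also lowered the calls over all genes tested, from 3219 of 14962 to 1414 of 15061, 995 of 15027 and 1161 of 15045. Cbs, which makes cystathionine from homocysteine, had log2 levels of -2.56, -2.41 and -2.41 in sham hearts and -0.36, -0.45 and 0.44 in tail-suspended hearts. Tail-suspension 3 was the highest array, and the log2 fold change of Cbs was 2.33 (SE 0.24, limma adjusted p = 0.00315). Cebpb, a partner of ATF4 on DNA, rose by 1.29 (SE 0.25, limma adjusted p = 0.0185), from 2.48, 2.05 and 2.95 in sham hearts to 3.52, 3.75 and 4.08. Slc3a2, the heavy chain shared by several amino acid exchangers, had 3.34, 3.35 and 3.50 in sham hearts and 4.33, 4.16 and 4.30 in tail-suspended hearts. Its groups were tight and well apart (log2 fold change 0.87, SE 0.095, limma adjusted p = 0.0038). The other 7 that rose had log2 fold changes from 0.29 (Cars) to 0.78 (Psat1).

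The ATF4 targets that fell were Gpt2 (by 0.72, limma adjusted p = 0.0093) and Slc7a5, the light chain that pairs with Slc3a2 (by 0.57, limma adjusted p = 0.0359), both named after their values were seen. A dimmer Slc7a5 probe had 0.40 and did not pass (limma adjusted p = 0.120), so the probes of this gene differed in sign. Asns, asparagine synthetase and a standard readout of ATF4, had 0.14 (limma adjusted p = 0.678). Atf5, a transcription factor translated like ATF4, had -0.22 (limma adjusted p = 0.10). The amino acid response motif was in 7 of the 27 ATF4 targets with a promoter window (25.9%), in 1 of the 8 that rose and in 6 of the 18 that were not called. Among all genes tested that had a window, it was in 2.87% of 1186 called higher, 2.80% of 1252 called lower and 2.79% of 8665 not called. Under 80% of the genes tested had a window, so these shares describe those genes only and cannot stand for all genes tested. Among the genes with a window the 3 shares were close to one another, and their difference was not tested.

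With the slide row as a block, 2 sensor control genes (Ppp1r15a and, with the same limit of its filter, Creb3l4), 1 degradation gene (Derl3) and 1 ATF4 target (Slc3a2) were called, and Cbs, Os9 and Sil1 were not (limma adjusted p = 0.0506, 0.0991 and 0.172).

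**Figure D4:**
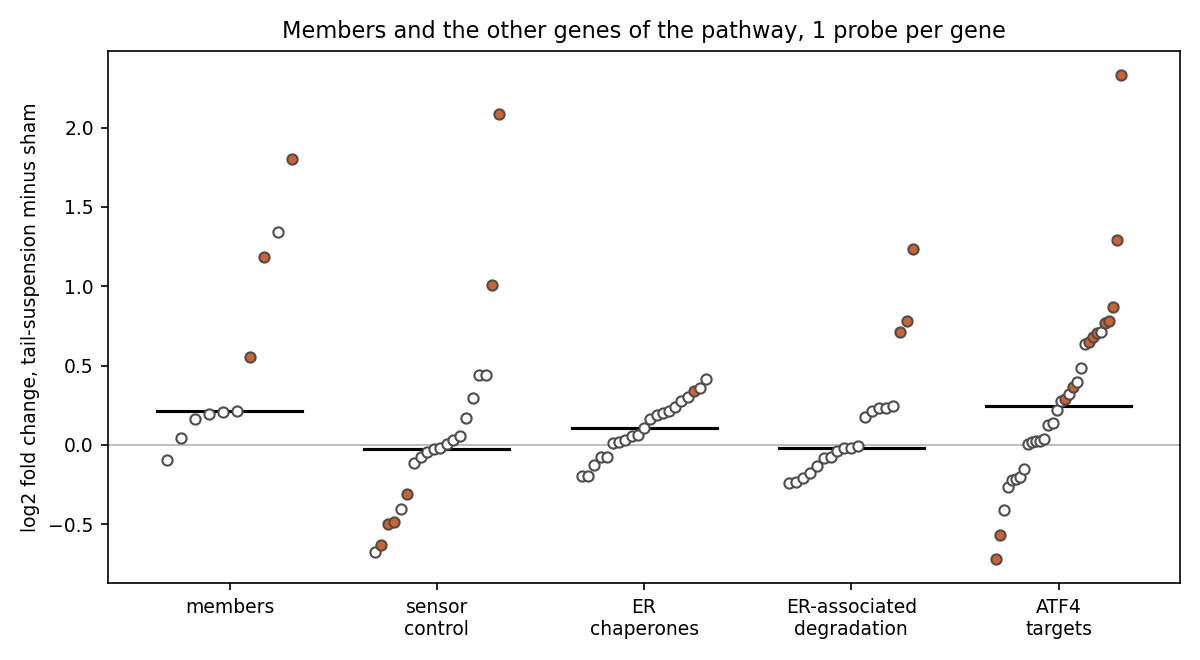
Log2 fold change (tail-suspension minus sham, n = 3 mice per group) of every tested gene of the members and of the other pathway lists, 1 point per gene, filled where limma's adjusted p was under 0.05, with a bar at each list's median. The medians are 0.21 for the members, -0.02 for sensor control, 0.11 for ER chaperones, -0.02 for ER-associated degradation and 0.25 for ATF4 targets.

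The pattern of each called member over the 6 arrays was set against the other 14961 genes, by the root mean square difference of log2 levels after centring each gene on its sham mean. The closest to Chac1 were Csrnp1 (0.169), Cpne6 (0.232) and Zfp36 (0.242), the closest to Herpud1 were Cp (0.10), Tfdp2 (0.103) and Adam22 (0.123), and the closest to Trib3 were Smad7 (0.0367), Zfp579 (0.0561) and Cyp4f17 (0.0589). The measure uses the group difference itself, so these genes had log2 fold changes near those of the members, from 0.51 (Smad7) to 1.94 (Cpne6).

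Markers of some other cell types moved with the groups, and their part in the changes of the members and pathway genes was not tested. Summed levels are given on the linear scale, relative to each array's 75th percentile. Neutrophil markers rose in 4 of 6 tested genes, with a summed level of 143 to 171 in sham and 207 to 237 in tail-suspended hearts. Csf3r made up most of this sum, S100a8 was 4.80 higher on the log2 scale, and Retnlg and Ltf were at background in sham hearts and so were tested only through the tail-suspended hearts. Among probes well above background on all 6 arrays, 2 of 4 neutrophil markers were called. Of the 9 endothelial markers, 5 fell by the test, and 2 had a positive log2 fold change. The summed level of all 9 was 168 to 180 in sham and 130 to 145 in tail-suspended hearts. Their median log2 levels overlapped (2.42 to 2.65 in sham and 2.50 to 2.65 in tail-suspended hearts). The endothelial calls became 0 of 9 without sham 1 (5 at an unadjusted limma p under 0.05), without sham 2 (6 unadjusted), without the filter on dim probes (5 unadjusted) and with the slide row as a block (3 unadjusted). They became 1 without sham 3 or without tail-suspension 3, 2 without tail-suspension 1 and 3 without tail-suspension 2. Calls over all genes tested fell too, from 3219 of 14962 to 1047 of 23688 without the filter on dim probes. With 1 array left out they ran from 995 of 15027 (without sham 2) to 3115 of 15177 (without tail-suspension 2). Of the B and plasma cell markers, 4 of 7 fell (summed level 1.69 to 2.07 against 0.919 to 1.37), led by Prdm1, a plasma cell factor, by 1.97 on the log2 scale. Among probes well above background on all 6 arrays, 3 of 6 B and plasma cell markers were called. The calls became 2 without sham 1, tail-suspension 1 or tail-suspension 3, and 1 with the slide row as a block. Red cell markers had summed levels of 429 to 691 in sham and 106 to 345 in tail-suspended hearts, with 0 of 5 tested called (4 at an unadjusted limma p under 0.05). Cardiomyocyte markers had 5626 to 5924 and 5152 to 5287, with 1 of 10 (Actc1) lower by the test. T cell markers summed to 2.67 to 2.92 and 2.22 to 2.51, with 0 of 4 tested called (1 unadjusted) and 2 of 7 markers at background throughout. The 2 adipocyte markers tested, of which 0 were called (1 unadjusted), summed to 149.5 to 168 and 176 to 193, nearly all of it Fabp4, which endothelial cells also express. Tail-suspension 1, the array on which the estimates with the slide row as a block rest, stood apart in the others, with an intensity of 691 for Cfd (69.1 and 106.6 in tail-suspension 2 and 3, and 3.65 to 79.0 in sham hearts) and of 72.5 for Adipoq (4.24 to 19.3 on the other arrays). Of the adipocyte and red cell lists, 1 of 7 adipocyte and 1 of 6 red cell markers were at background on all 6 arrays. The sums overlapped between groups for fibroblast (280 to 297 and 278 to 350.0), smooth muscle and pericyte (62.9 to 85.3 and 74.6 to 103) and macrophage markers (30.5 to 40.6 and 34.6 to 54.3). In each of these lists 1 gene was called (Col3a1 and Kcnj8 lower, Cd163 higher). Among probes well above background on all 6 arrays, 0 of 7 macrophage markers were called, so the call of Cd163 follows in part from the filter. Unlike the sums, the median log2 levels of the fibroblast markers did not overlap (2.98 to 3.36 in sham and 1.65 to 2.76 in tail-suspended hearts). Of the 8 fibroblast markers, 6 had a negative log2 fold change and 2 a positive one.

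**Figure D5:**
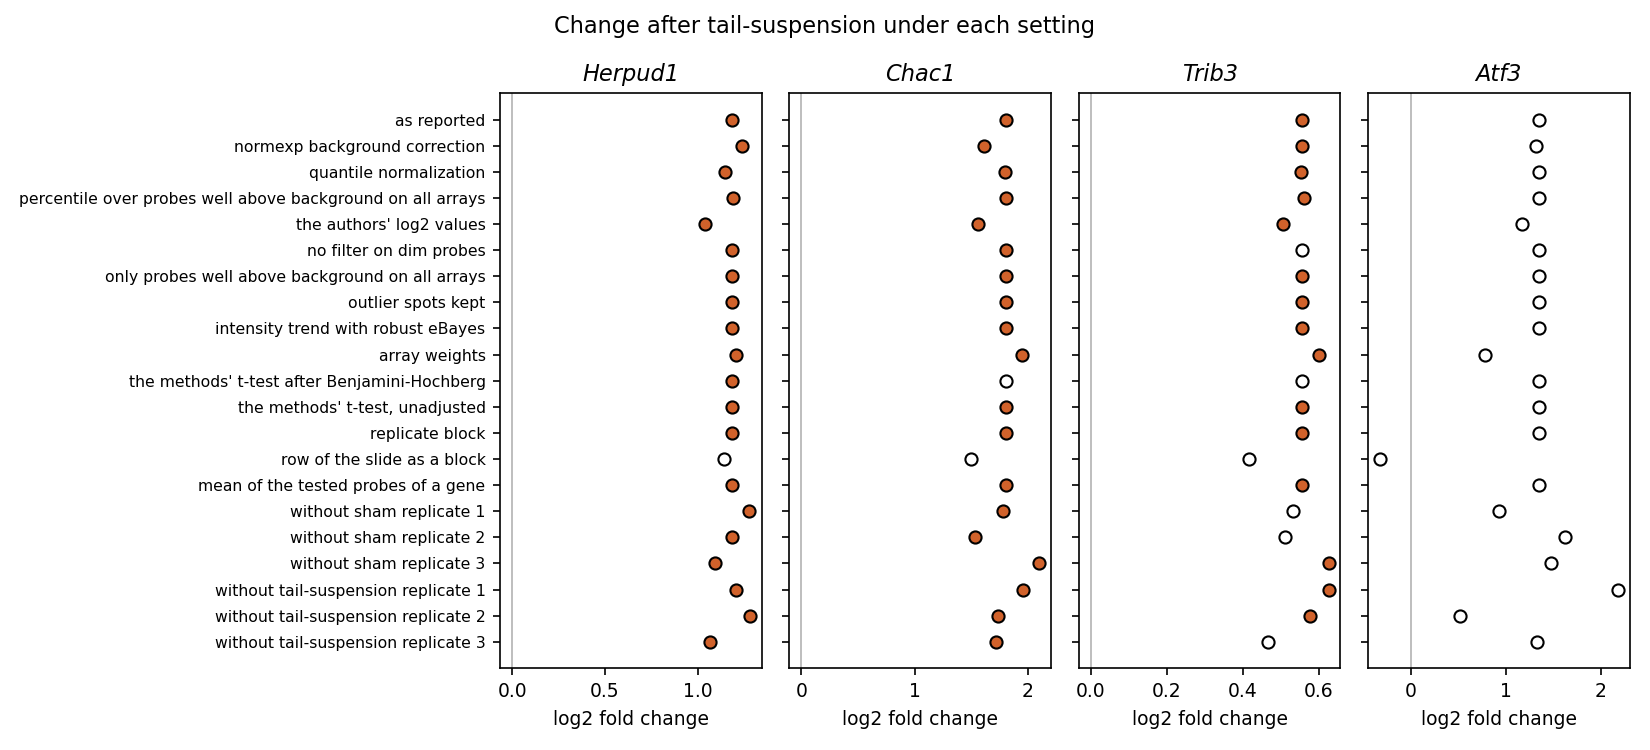
Log2 fold change (tail-suspension minus sham) of Herpud1, Chac1, Trib3 and Atf3 under each way of processing the arrays, including each array left out in turn, with filled points where the adjusted p was under 0.05. Herpud1 stays between 1.04 and 1.28 and Chac1 between 1.5 and 2.10, whereas Atf3 runs from -0.32 to 2.18 with no filled point.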

How the data were processed

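Cardiac RNA of 3 sham and 3 tail-suspended mice was measured on single-colour Agilent arrays. For each array the authors deposited the scanner's table, which holds a processed intensity per spot made by Agilent Feature Extraction 10.7.1.1, and 1 table of log2 values. Each column of that log2 table correlated above 0.999 with its array's log2 processed intensity, and all had the same distribution (median 4.32), so the authors' values were quantile normalized on the log2 scale, without centring of probes.

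From the deposited processed intensity, log2 values minus each array's 75th percentile were taken (R 4.3.3), leaving out control and outlier spots. The 28032 probes that were well above background throughout 1 or both groups entered limma 3.58.1 (no covariates), adjusted by Benjamini-Hochberg over all of them. Genes with several probes were represented by the brightest one tested. Coordinates of probes are those of the files (mm9). In simulated data of this design on 28003 probes, 70% of 100 probes changed by 1 on the log2 scale and 89% of 100 changed by 2 were called. All other simulated probes were left unchanged, so a far smaller share changed than was called in the data. The adjusted threshold depends on that share, so these rates need not hold for the data.

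The members, the gene lists and the rule for names were chosen with earlier results of these data known. Named were all members, 10 pathway genes chosen by role, up to 3 called genes of each pathway list with the largest change and no overlap of the groups, and the 3 genes closest in pattern to each called member. Alternatives were another background correction, normalization, scaling, filter, variance model or probe rule, the authors' values, the methods' t-test, blocks and left-out arrays. Replicate numbers did not pair the samples.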

Additional observations from a re-analysis of the deposited data

How the results depend on the processing

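Chac1 and Herpud1 kept their sign under all 20 alternatives, and so did Trib3, with adjusted p over the 19 adjusted alternatives from 0.000815 to 0.133, 0.00053 to 0.0773 and 0.0107 to 0.224. The slide row as a block gave 1.5 for Chac1, 1.14 for Herpud1 (adjusted p = 0.0773), 0.42 for Trib3, -0.32 for Atf3 and 0.0849 for Ddit3. It called 320 probes higher and 177 lower, 0 members (3 at an unadjusted limma p under 0.05, and 1 by the adjusted methods' t-test without the block), 2 sensor control genes, 0 ER chaperones (4 unadjusted), 1 degradation gene and 1 ATF4 target. Without the filter on dim probes, 1041 probes were higher and 790 lower, Trib3 had 0.56 (adjusted p = 0.0802), and 2 sensor control genes, 0 chaperones (1 unadjusted) and 4 ATF4 targets were called. The methods' t-test after Benjamini-Hochberg called 1532 higher and 1248 lower, 1 member, Herpud1 (Trib3 had 0.56, adjusted p = 0.0639, and Chac1 1.80, adjusted p = 0.0598), 3 sensor control genes, 6 ATF4 targets and 2 endothelial markers, and unadjusted 4810 higher, 4696 lower, 2 chaperones and 7 degradation genes. The replicate block, for numbers whose deviations correlated at -0.0198, -0.0176 and 0.0496 and so did not pair the samples, called 1714 higher, 1403 lower, 3 sensor control genes and 0 chaperones (2 unadjusted), and changed no member's call. Array weights called 4355 lower and 2 chaperones and gave -0.00787 for Eif2ak3, the mean over a gene's probes called 2 chaperones, and normexp called 1 degradation gene. Hspa5 was -0.0700 after quantile normalization and -0.0622 in the authors' values.

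With each array left out in turn, 965 to 2932 probes were higher and 726 to 2580 lower, and 2 to 3 members, 2 to 5 sensor control genes, 0 to 4 chaperones, 3 to 3 degradation genes and 4 to 12 ATF4 targets were called. The fewest probes were called without sham 2, the fewest ATF4 targets (4) and sensor control genes (2) without sham 2 or tail-suspension 3, and the most chaperones (4) without tail-suspension 2. Log2 fold changes ran from 0.47 to 0.63 for Trib3, -0.16 to 0.0751 for the dimmer Atf4 probe, -0.0356 to 0.15 for Eif2ak3, -0.0311 to 0.38 for Asns, -0.11 to 0.0530 for Edem1 and -0.13 to 0.21 for Hspa5. Slide as a block could not be fitted, since all arrays were on 1 slide. Cebpb lost its call in 6 of 20 alternatives, Eif2ak2 in 6 and Sil1 in 8, whereas Ppp1r15a and Slc3a2 lost it in none of the 20. The causes of these shifts were not tested. Signal close to background limits what Creb3l4 and Derl3 can show.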

Other observations

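The genes closest to Atf3 in pattern over the 6 arrays were looked for after its values were seen. They were the immediate-early genes Fos, Nr4a2 and Fosb, at root mean square differences of 0.412, 0.442 and 0.475 on the log2 scale and with log2 fold changes of 1.09, 1.07 and 1.21. These distances were larger than those of the closest genes to Chac1, Herpud1 and Trib3. They are not scaled by spread, and the pooled SD within groups was 1.28 for Atf3 against 0.447, 0.203 and 0.144 for those members. The distances therefore do not rank how close the matches are between members.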
